A study of Mus musculus with 103 samples.

Results

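Early-only genes are those whose RNA stood well above untreated cells after 1 h of KLA and was back at, or below, the untreated level by 6 h and 12 h. KLA (Kdo2-lipid A), a purified lipopolysaccharide fragment, activates the receptor TLR4. Of 24014 gene symbols in the RNA table, 7739 had a transcript of at least 200 bases and at least 5 RPKM (reads divided by transcript length in kb and by library size) in 1 of 6 libraries. Of these, 40 were chosen by values from 4 libraries, the 3 times of KLA and the untreated library that they share. Their log2 ratio of RPKM + 1 to that library, taken relative to the median of expressed genes, was at least 1 at 1 h and under 0.5 at both 6 h and 12 h. The 1, 6 and 12 h values below therefore describe the choice and test nothing. The 24 h libraries entered only the filter on low values and the choice of transcript, and the sequences and peak lists had no part in the rule.

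The cells were macrophages that gather in the peritoneum of male C57BL/6 mice, 6 to 8 weeks old, after thioglycollate. All were cultured, kept overnight in 0.5% serum and then left untreated or given KLA at 100 ng/ml for 1, 6, 12 or 24 h. The same untreated library served as the control for 1 to 12 h and a separate one for 24 h. Each condition had 1 library of poly(A) RNA, so every difference is between 2 libraries and no p-value can be given. The series has 103 samples, of which these 6 and the peak lists of 2 transcription factors, LXR and SREBP1, from cells of the same kind and titled with the LXR agonist GW3965, used at 1 µM, are analysed here. How many mice were pooled for a library is not given in the sources used.

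Macrophages answer a TLR4 ligand through NF-κB and the MAP kinases, which act on factors that are already in the cell. The first genes to be transcribed, the immediate early genes, therefore need no new protein, and they encode transcription factors, feedback inhibitors of kinases and secreted signals. Many of their RNAs are short-lived, with AU-rich elements in the 3′ UTR that recruit the decay machinery, so a pulse of transcription can leave a pulse of RNA. Cytokine genes, by contrast, often stay transcribed for many hours in the same cells.

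Library totals were 2205187 to 2674826 reads, recovered from the deposited values, and between 9266 and 10172 genes reached an RPKM of 1. For a transcript of 1 kb a single read was worth 0.374 to 0.453 RPKM. Expressed genes had median log2 ratios of −0.16, −0.46, −0.32 and −0.09 after 1, 6, 12 and 24 h, and all log2 ratios below are relative to these medians. Genes called at least 2-fold higher or lower have such a ratio of at least 1 in that direction, unless plain RPKM is named. Their plain fold can be under 2. Where a single gene is placed above or below an untreated library without a log2 ratio, plain RPKM is compared. Folds of single genes are plain ratios of RPKM with a 95% exact counting interval in brackets, which covers counting error only. The 7 macrophage markers, among them Csf1r and Cd68, summed to 2198 to 2749 RPKM in every library. Those of neutrophils summed to 52.4 to 129.6 RPKM, and to 62.5 at 1 h against 60.9 in its control. Those of fibroblasts and mesothelium summed to 82.4 to 150.2, and those of B cells to 5.68 to 13.2. Dendritic cell markers summed to 1.14 to 9.38 RPKM, T and NK cell markers to 0.910 to 1.50, and mast cell and eosinophil markers to 0.372 to 1.22, with Mcpt4, Epx and Prg2 at 0 throughout. The part of other cells in the results was not tested, and in bulk RNA fewer cells of a type and less RNA per cell cannot be told apart.

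At 1 h, 354 of the 7739 eligible genes (4.57%) were at least 2-fold higher than untreated, and the 40 early-only genes were among them by choice. Another 235 were also at least 2-fold higher at 6 h and 12 h and are called sustained genes here, and 79 lay between the 2 kinds. The early-only genes had a median log2 ratio of 1.60 at 1 h and the sustained genes one of 2.07. All 40 had their highest RPKM of the 6 libraries at 1 h, from 5.01 to 1846 RPKM. The fold at 1 h lay beyond counting error for 38 of them, and its lower bound was above 2 for 20. The exceptions were Nhej1 and Tatdn3, with 8 and 6 reads in the untreated library. Between 1 h and 6 h the RNA was a median of 7.17-fold lower, and this difference lay beyond counting error for 39 genes. These counts rest on values that chose the genes, and they were not taken over all eligible genes. Just inside the limit at 1 h were Dot1l (1.01), Tatdn3 (1.02) and Sirt1 (1.02), and just outside it Pmaip1 (0.98), Ap4b1 (0.97) and Ier5 (0.96). Of the higher of the 6 h and 12 h ratios, Myc (0.43), Sde2 (0.41) and Plscr1 (0.40) lay just inside and Errfi1 (0.52), Dusp5 (0.54) and Nup54 (0.55) just outside. Counting error alone reached over that limit for 22 of the 40 genes at 6 h or 12 h, so the edge of the group is not sharp.

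**Figure D1:**
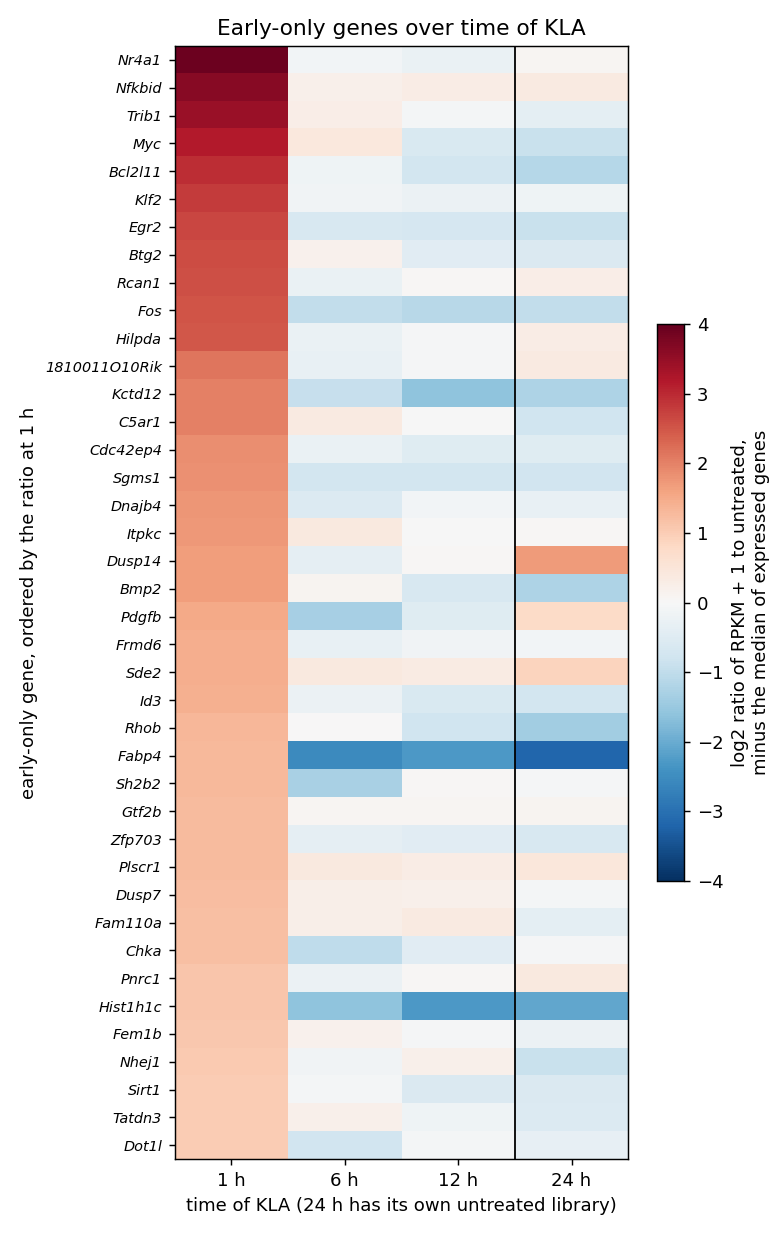
Colour gives the log2 ratio of RPKM + 1 to the matching untreated library, relative to the median of expressed genes, for each early-only gene (rows) at 1, 6, 12 and 24 h of KLA (columns, 1 library each). Red at 1 h and no more than pale red at 6 h and 12 h is the rule. It sets no lower limit, so some genes are blue at these times. The 24 h column was not used by it and runs from −3.17 in Fabp4 to 1.69 in Dusp14.

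Promoter sequences of 250 bases before to 50 after the start were found in RefSeq (GRCm38.p6) for 33 of the 40 genes. Those of 1810011O10Rik, Bmp2, Fabp4, Myc, Pdgfb, Trib1 and Zfp703 were not in that table. The stretches printed here are a selection of those that hold a match to one of the motifs searched for. The named match is in capitals, and each sequence ends at the start. Egr2 carries a CArG box, the motif of serum response factor, and Fos a TATA box.
Egr2 promoter, chr10:67537779-67537868 (plus strand): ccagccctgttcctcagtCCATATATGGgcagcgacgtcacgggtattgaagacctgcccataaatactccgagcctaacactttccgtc
Fos promoter, chr12:85473800-85473889 (plus strand): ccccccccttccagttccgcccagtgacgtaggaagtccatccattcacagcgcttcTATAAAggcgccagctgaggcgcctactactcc
Rcan1 and Btg2 both carry a CRE (TGACGTCA), the motif of CREB and ATF factors. In Rcan1 it is followed by an AP-1 site (TGANTCA), and in Btg2 by an EGR site (GCGNGGGCG), which zinc fingers of the EGR family bind.
Rcan1 promoter, chr16:92400079-92400258 (minus strand): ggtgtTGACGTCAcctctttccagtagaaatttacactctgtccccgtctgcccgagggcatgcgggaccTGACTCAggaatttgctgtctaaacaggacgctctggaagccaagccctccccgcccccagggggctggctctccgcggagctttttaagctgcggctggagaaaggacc
Btg2 promoter, chr1:134079156-134079335 (minus strand): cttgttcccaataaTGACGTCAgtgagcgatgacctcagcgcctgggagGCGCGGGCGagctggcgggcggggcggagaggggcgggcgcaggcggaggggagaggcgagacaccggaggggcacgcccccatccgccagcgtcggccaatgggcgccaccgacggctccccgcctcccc
The EGR site was also present in Nr4a1, on the opposite strand, and in Bcl2l11, Frmd6 and Sirt1. Of the matches in Sirt1 the one that lies wholly before the start is in capitals.
Nr4a1 promoter, chr15:101266756-101266845 (plus strand): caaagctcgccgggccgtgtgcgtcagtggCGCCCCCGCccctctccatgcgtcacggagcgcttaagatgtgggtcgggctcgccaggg
Bcl2l11 promoter, chr2:128125948-128126037 (plus strand): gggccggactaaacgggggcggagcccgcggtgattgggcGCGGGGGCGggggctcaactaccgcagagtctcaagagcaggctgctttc
Frmd6 promoter, chr12:70825424-70825513 (plus strand): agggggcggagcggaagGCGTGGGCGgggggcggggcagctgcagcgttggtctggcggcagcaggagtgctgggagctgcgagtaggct
Sirt1 promoter, chr10:63339036-63339125 (minus strand): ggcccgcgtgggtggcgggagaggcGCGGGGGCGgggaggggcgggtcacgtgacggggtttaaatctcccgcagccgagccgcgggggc

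An EGR site was found in 10 of the 33 early-only promoters (30.3%), namely those of Bcl2l11, Btg2, Frmd6, Nr4a1 and Sirt1 and of Chka, Itpkc, Kctd12, Klf2 and Sh2b2. The share was 10.1% of 178 sustained, 10.9% of 6260 eligible and 5.55% of all 32851 promoters of this length. The motif overlaps the GC box (GGGCGG) at 8 of its 12 matches, and GC boxes were in 72.7% of early-only, 56.7% of sustained and 66.9% of eligible promoters. Early-only promoters were also rich in G and C, with a median of 64.7% against 57.0% in sustained and 61.3% in eligible genes. Among promoters of at least 60% G and C the EGR site was in 9 of 22 early-only genes (40.9%), 15.1% of sustained and 17.0% of eligible genes. In the 150 bases before the start it was in 21.2% of early-only and 7.48% of eligible promoters. The κB site of NF-κB lay the other way, in 2 early-only promoters (6.06%, Fos and Nr4a1) against 23.0% of sustained and 10.4% of eligible ones. A TATA box (TATAAA) was in 3.03%, 18.5% and 7.22% of the same sets. AP-1 sites were in 9.09% of early-only (Hilpda, Rcan1 and Sgms1) and 9.55% of sustained promoters, against 5.38% of eligible ones. The CRE was in 6.06% of early-only, 2.81% of sustained and 3.39% of eligible promoters. In the 150 bases before the start neither the CRE nor the κB site was in any of the 33, against 2.51% and 5.89% of eligible promoters. The CArG box was in 3.03% of early-only and 1.63% of all promoters, and the SREBP element (TCACNCCAC) in none of the 33 and 1.24% of all. Both strands were searched. These shares describe letters in a window of the promoter and say nothing of whether a factor bound.

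**Figure D2:**
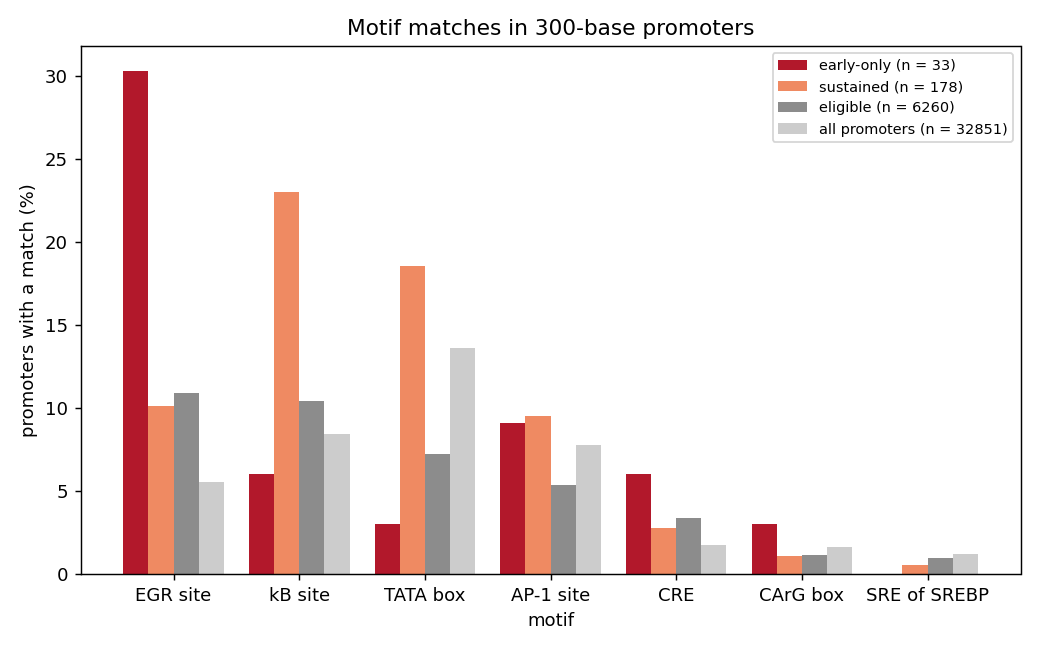
Bars give the share of promoters, in percent, with at least 1 match to each motif in the 300 bases around the start, for early-only, sustained, eligible and all RefSeq promoters. The EGR site stands at 30.3% in early-only promoters and 10.1% in sustained ones, and the κB site at 6.06% and 23.0%.

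Transcription factors of the immediate early response from several families were among the 40, a nuclear receptor, zinc fingers and a leucine zipper protein. Nr4a1 (Nur77, an orphan nuclear receptor that restrains inflammatory genes; NM_010444, chr15:101097277-101105225, mm9) stood at 0.733 RPKM in the untreated library, at 22.6, 0.170 and 0.165 RPKM after 1, 6 and 12 h of KLA, and at 0 and 0 RPKM in the untreated and KLA libraries of 24 h. It was high in the 1 h library alone, with 134 reads against at most 4 elsewhere, and its fold at 1 h, 30.8 (11.7 to 115), is imprecise for that reason. Egr2, a zinc finger factor that shapes myeloid cells (NM_010118, chr10:67000617-67004936), was already expressed in untreated cells. It stood at 38.6 RPKM in the untreated library, at 223, 17.6 and 19.0 RPKM after 1, 6 and 12 h of KLA, and at 35.3 and 17.5 RPKM in the untreated and KLA libraries of 24 h. The 1 h library was 5.78-fold (5.05 to 6.62) above the untreated one, and the 3 later KLA libraries all lay below both untreated libraries. Fos, the leucine zipper partner of JUN in AP-1 (NM_010234, chr12:86814851-86818219), had the same shape, at 13.7, 73.9, 4.43 and 4.49 RPKM without KLA and at 1, 6 and 12 h, and 10.9 and 4.65 RPKM in the 24 h pair. It was 5.41-fold (4.13 to 7.19) higher at 1 h and lower than either untreated library at all later times.

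Myc, the growth and metabolism regulator (NM_001177353, chr15:61816896-61821916), stood at 6.82 RPKM in the untreated library, at 61.6, 6.69 and 3.07 RPKM after 1, 6 and 12 h of KLA, and at 8.07 and 3.59 RPKM in the untreated and KLA libraries of 24 h. The 6 h level matched the untreated one, and the 12 h and 24 h levels lay below both untreated libraries. Its fold at 1 h was 9.04 (6.40 to 13.1), and all 4 transcripts of the gene gave a log2 ratio of 3.16. Klf2, a Krüppel-like factor that quiets NF-κB target genes in myeloid cells (NM_008452, chr8:74842961-74845553), stood at 5.50, 39.5, 3.25 and 3.38 RPKM without KLA and at 1, 6 and 12 h, and 4.90 and 3.91 RPKM in the 24 h pair. Only the 1 h library stood apart, at 7.18-fold (4.59 to 11.8) above untreated. Id3, an inhibitor of helix-loop-helix factors, was at 11.4, 28.9, 6.64 and 5.58 RPKM without KLA and at 1, 6 and 12 h, and 5.68 and 2.75 RPKM in the 24 h pair, so that its untreated libraries were themselves unequal.

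Regulators of transcription and of RNA decay other than DNA-binding factors followed. Nfkbid encodes IκBNS, a nuclear IκB protein that modulates NF-κB at inflammatory genes (NM_172142, chr7:31208323-31213765). It stood at 12.6 RPKM in the untreated library, at 153, 10.5 and 12.4 RPKM after 1, 6 and 12 h of KLA, and at 6.54 and 8.00 RPKM in the untreated and KLA libraries of 24 h. The 1 h library was 12.1-fold (9.20 to 16.1) above its control, and the other 5 libraries lay within the range of the untreated pair. Btg2, an antiproliferative protein that recruits the CCR4-NOT deadenylase to RNAs (NM_007570, chr1:135971442-135975732), was at 14.7, 85.3, 11.9 and 8.09 RPKM without KLA and at 1, 6 and 12 h, and 13.7 and 8.25 RPKM in the 24 h pair. Its level was 5.80-fold (4.69 to 7.23) higher at 1 h and in RPKM lower than in both untreated libraries from 6 h on. The plain fold at 6 h, 0.81 (0.60 to 1.09), includes 1, and relative to the median gene the 6 h log2 ratio was 0.17. Smaller pulses were seen for the general initiation factor gene Gtf2b at 2.21-fold (1.75 to 2.80) and the nuclear receptor coregulator Pnrc1 at 1.98-fold (1.63 to 2.41). The zinc finger gene Zfp703 was 2.23-fold (1.71 to 2.94) higher. The deacetylase Sirt1 and the histone H3K79 methyltransferase Dot1l were at 1.91 (1.44 to 2.57) and 1.87 (1.54 to 2.28) times their untreated level.

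**Figure D3:**
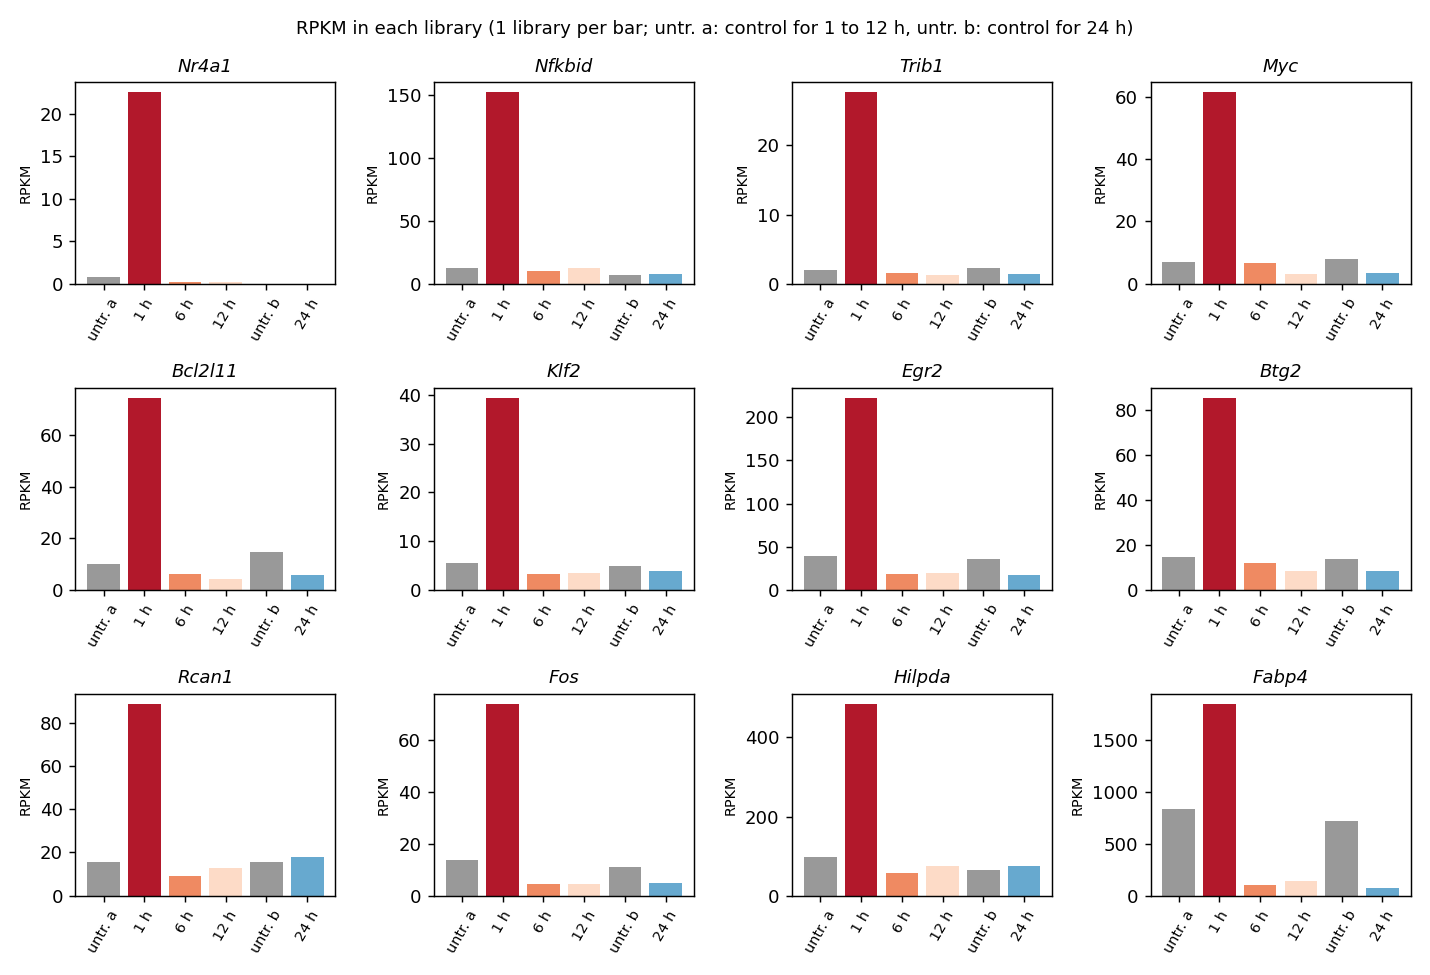
Bars give RPKM (linear axes from 0, a different scale in each panel) in the 6 libraries, 1 library per bar, for 11 of the genes with the highest ratio at 1 h and for Fabp4. The 1 h bar is the highest in every panel. In Fabp4 the KLA bars at 6, 12 and 24 h are far below both untreated bars.

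Genes of intracellular signalling formed another group with several roles. Trib1, a pseudokinase that directs the ubiquitin ligase COP1 to its targets (NM_144549, chr15:59480209-59488654), stood at 1.92 RPKM in the untreated library, at 27.7, 1.57 and 1.22 RPKM after 1, 6 and 12 h of KLA, and at 2.30 and 1.39 RPKM in the untreated and KLA libraries of 24 h. It was high at 1 h only, 14.5-fold (8.88 to 25.2) above the untreated library, and the other 5 libraries did not stand apart. Rcan1, an inhibitor of the phosphatase calcineurin (NM_019466, chr16:92392196-92400323), was at 15.7, 89.1, 9.03 and 12.9 RPKM without KLA and at 1, 6 and 12 h, and 15.7 and 17.7 RPKM in the 24 h pair. The 6 h level was the lowest of the 6 and the 24 h pair was nearly level. Its fold at 1 h was 5.67 (4.44 to 7.32) in the transcript whose promoter, with a CRE and an AP-1 match, is printed above. Dusp14, a phosphatase of MAP kinases, had few reads. It stood at 1.26 RPKM untreated and 5.49, 0.292 and 0.850 RPKM after 1, 6 and 12 h, then 0.268 without and 2.85 with KLA in the 24 h pair, on 4, 19, 1, 3, 1 and 11 reads.

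The ERK phosphatase Dusp7 was at 6.78 RPKM untreated and 15.3, 5.64 and 6.11 RPKM after 1, 6 and 12 h, then 8.06 without and 7.10 with KLA in the 24 h pair. It was 2.26-fold (1.60 to 3.23) higher at 1 h and otherwise nearly level. Itpkc, which phosphorylates the second messenger inositol trisphosphate, was 3.68-fold (2.26 to 6.24) higher at 1 h, and the adaptor Sh2b2 2.32-fold (1.69 to 3.23). Sh2b2 was then far below its control at 6 h, at 1.92 against 8.76 RPKM, and near it at 12 h with 7.03 RPKM. Rhob, an endosomal small GTPase (NM_007483, chr12:8504565-8506791), was one of the most abundant of the 40 per length of transcript. It stood at 123 RPKM in the untreated library, at 281, 91.1 and 56.4 RPKM after 1, 6 and 12 h of KLA, and at 122 and 43.3 RPKM in the untreated and KLA libraries of 24 h. The level was 2.28-fold (2.07 to 2.51) higher at 1 h and then went down with each later time of KLA, to less than in either untreated library. Cdc42ep4, an effector of the GTPase CDC42, and Frmd6, a FERM domain protein of the Hippo pathway, were 3.40-fold (2.76 to 4.20) and 3.43-fold (1.91 to 6.53) higher at 1 h.

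Growth factors and receptors were few. Pdgfb, the B chain of platelet-derived growth factor (NM_011057, chr15:79826306-79845238), stood at 5.86 RPKM in the untreated library, at 16.7, 1.00 and 2.92 RPKM after 1, 6 and 12 h of KLA, and at 4.47 and 7.75 RPKM in the untreated and KLA libraries of 24 h. It was 2.85-fold (1.96 to 4.23) higher at 1 h, lowest at 6 h on 7 reads, and at 24 h above its untreated library. Bmp2, a ligand of the TGF-β family (NM_007553, chr2:133377895-133388632), stood at 3.43, 11.6, 2.48 and 1.26 RPKM without KLA and at 1, 6 and 12 h, and 5.42 and 1.57 RPKM in the 24 h pair. It was 3.37-fold (2.18 to 5.37) higher at 1 h and below both untreated libraries at 12 h and 24 h. C5ar1, the receptor for the complement fragment C5a (NM_007577, chr7:16832092-16844889), was abundant in untreated cells too, at 55.4, 202, 51.7 and 43.8 RPKM without KLA and at 1, 6 and 12 h, and 62.5 and 33.6 RPKM in the 24 h pair. Its 1 h level was 3.64-fold (3.21 to 4.14) above the untreated one, and the 6 h and 12 h levels were close to it. No cytokine or chemokine was among the 40.

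Genes of lipid handling included Fabp4 and Hilpda, the 2 members with the highest RPKM at 1 h. Fabp4, a fatty acid carrier of macrophages and fat cells (NM_024406, chr3:10204343-10208576), stood at 834 RPKM in the untreated library, at 1846, 103 and 136 RPKM after 1, 6 and 12 h of KLA, and at 721 and 74.2 RPKM in the untreated and KLA libraries of 24 h. The 1 h level was 2.21-fold (2.07 to 2.37) above untreated, and the later KLA libraries were all far below both untreated ones, with log2 ratios of −2.54, −2.29 and −3.17 at 6, 12 and 24 h. From 1 h to 6 h its level went down by 17.9-fold (15.2 to 21.1). Hilpda, a lipid droplet protein that inhibits the lipase ATGL (NM_023516, chr6:29222626-29225449), stood at 96.3 RPKM in the untreated library, at 485, 57.4 and 73.9 RPKM after 1, 6 and 12 h of KLA, and at 64.8 and 75.2 RPKM in the untreated and KLA libraries of 24 h. It was 5.04-fold (4.34 to 5.87) higher at 1 h. At 6 h it was below both untreated libraries, and at 12 h and 24 h between them. Sgms1, which makes sphingomyelin in the Golgi (NM_001168526, chr19:32197217-32285503), was at 22.4, 73.3, 9.17 and 10.3 RPKM without KLA and at 1, 6 and 12 h, and 26.9 and 14.6 RPKM in the 24 h pair. It was 3.28-fold (2.75 to 3.93) higher at 1 h and below both untreated libraries afterwards. Chka, the choline kinase of phosphatidylcholine synthesis, was 2.15-fold (1.61 to 2.91) higher at 1 h and lowest at 6 h, with 3.60 against 11.8 RPKM. The scramblase gene Plscr1, an interferon-inducible gene in many cells, was 2.30-fold (1.51 to 3.58) higher at 1 h.

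Among genes of cell death and stress, Bcl2l11 encodes BIM, a BH3-only protein that triggers the mitochondrial pathway of apoptosis (NM_009754, chr2:127951774-127988283). It stood at 9.87 RPKM in the untreated library, at 74.6, 6.00 and 4.28 RPKM after 1, 6 and 12 h of KLA, and at 14.6 and 5.71 RPKM in the untreated and KLA libraries of 24 h. The level was 7.56-fold (6.16 to 9.36) higher at 1 h and below both untreated libraries at 6, 12 and 24 h. Its 5 transcripts had log2 ratios of 2.78 to 2.98 at 1 h. Fem1b, a substrate receptor of ubiquitin ligases, was 1.96-fold (1.63 to 2.37) higher and the HSP40 co-chaperone Dnajb4 3.28-fold (2.43 to 4.50) higher. Kctd12, an auxiliary subunit of GABA-B receptors (NM_177715, chr14:103375798-103381854), stood at 20.1 RPKM in the untreated library, at 76.3, 7.10 and 4.52 RPKM after 1, 6 and 12 h of KLA, and at 41.8 and 16.2 RPKM in the untreated and KLA libraries of 24 h. Its 2 untreated libraries differed by 0.99 on the log2 scale, and it was 3.79-fold (3.31 to 4.34) higher at 1 h than the lower of them. Hist1h1c, a linker histone gene of the H1 family, was at 32.6, 63.9, 6.99 and 4.52 RPKM without KLA and at 1, 6 and 12 h, and 24.6 and 4.65 RPKM in the 24 h pair. It was only 1.96-fold (1.40 to 2.78) higher at 1 h and lower at every later time, and reads from its close relatives could be split between genes.

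The remaining genes had small or thinly read pulses. Sde2, a gene of splicing and genome maintenance, was 2.60-fold (1.93 to 3.56) higher at 1 h and Fam110a 2.63-fold (1.07 to 7.35) higher on 7 reads in the untreated library. The end-joining repair gene Nhej1 and the nuclease gene Tatdn3 stood at ratios of 2.07 (0.855 to 5.50) and 2.14 (0.774 to 6.81), which include 1. 1810011O10Rik had 18 reads at 1 h and 0 to 2 reads in the other 5 libraries. Of the 40 genes, 8 had fewer than 20 reads in the untreated library, and 9 reached 5 RPKM at 1 h only and so were eligible only through that library.

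Lists of early response genes show which families the early-only rule took from. The lists and their members were assembled with earlier results of these data known. Of 152 eligible genes in 12 lists, 98 stood at least 2-fold higher after 1 h and 14 were early-only (9.21%, against 0.517% of all eligible genes). The lists were built from genes of this kind, so the higher share is no independent evidence. All 27 eligible cytokines and chemokines were outside the group, 26 of them at least 2-fold higher at 1 h and 24 also at 6 h and 12 h. Il23a was nevertheless high at 1 h alone, at 0.334, 76.1, 0.621 and 0.602 RPKM without KLA and at 1, 6 and 12 h. It missed the limit with log2 ratios of 0.74 and 0.59 at 6 h and 12 h, on 2 reads each against 1 untreated. In the NF-κB inhibitor list Nfkbid was the 1 early-only gene of 11, and 7 others were at least 2-fold higher at all 3 times. Nfkbia, which encodes IκBα, stood at 26.4 RPKM untreated, 1574 at 1 h and 337 at 12 h.

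EGR and NR4A factors gave 2 early-only genes of 3 eligible, Egr2 and Nr4a1. The third, Egr1, stood at 3.84, 216, 4.25 and 0.665 RPKM and missed the limit at 6 h with a log2 ratio of 0.58. In the list of MAP kinase phosphatases and Ras-MAPK inhibitors 9 of 11 genes were at least 2-fold higher at 1 h, 3 of them at all 3 times, while Dusp14 was the 1 early-only gene. Dusp1, the main phosphatase of p38 and JNK, went from 27.6 to 1235 RPKM at 1 h and was at 28.9 RPKM at 6 h. Its log2 ratios of 0.52 at 6 h and 0.71 at 12 h lay outside the limit. The EGF receptor inhibitor Errfi1 and the ERK phosphatase Dusp5, named above, missed it at 6 h alone. Among 10 AP-1 genes Fos was early-only, while Junb was 3.39 higher on the log2 scale at 1 h and still 1.71 higher at 6 h. Jun was at 0.23 at 1 h and −1.92 at 6 h. The Krüppel-like factors (Klf2, 1 of 9), other early transcription regulators (Myc and Id3, 2 of 22), RNA decay genes (Btg2, 1 of 10) and survival genes (Bcl2l11, 1 of 14) gave few members. Growth factors gave Pdgfb and Bmp2 (2 of 14), inducible kinases and GTPases Trib1 and Rhob (2 of 17) and cAMP targets Nr4a1 (1 of 6). The other 26 early-only genes were in none of the lists.

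After the pulse the 40 genes went different ways. At 6 h and 12 h, 23 of them lay within 0.5 of the untreated level on the log2 scale, Nr4a1, Nfkbid, Trib1, Klf2, Btg2, Rcan1, Hilpda and C5ar1 among them. Another 11 were at least 0.5 lower at 1 of these times, such as Myc, Bcl2l11, Bmp2 and Rhob at 12 h and Pdgfb, Sh2b2 and Chka at 6 h. The remaining 6, Egr2, Fabp4, Fos, Hist1h1c, Kctd12 and Sgms1, were at least 0.5 lower at both, as were 16.3% of all eligible genes. At 6 h 5 of the 40 were at least 2-fold lower (10.8% of eligible genes were) and at 12 h 4 of them (9.24%). The counting interval of the plain fold, which is not taken relative to the median gene, lay below 1 for 20 genes at 6 h (48.5% of eligible genes) and 21 at 12 h (40.5%).

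The 24 h libraries were not used in the choice, apart from the filter on low values and the choice of transcript. In them the early-only genes lay slightly below their untreated library as a group. The rule had capped their 12 h ratio, and 12 h and 24 h ratios went together across eligible genes (r = 0.91). The eligible genes still hold those that stayed high at 12 h, and the sustained genes were chosen to be high then. The 24 h contrast with either set is therefore not independent of the choice. Of the 40, 28 had a ratio below that of the median gene (48.4% of eligible genes did). At least 2-fold lower were 6 of the 40, against 9.45% of eligible genes, and 1 of the 40 was at least 2-fold higher, against 12.5%. The median log2 ratio was −0.36, with 0.02 for eligible and 2.47 for sustained genes, of which 199 of 235 were at least 2-fold higher. Within 0.5 of the median gene lay 20 early-only genes (53.4% of eligible genes). The counting interval of the plain fold lay below 1 for 17 genes (30.8% of eligible genes), lay above 1 for 4 (24.3%) and included 1 for 18. Nr4a1 had no read in either library, where 3 reads in a transcript of 1 kb are worth 1.16 and 1.12 RPKM.

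The 6 genes that were at least 2-fold lower at 24 h were Fabp4 (−3.17), Hist1h1c (−2.09), Rhob (−1.39), Bmp2 (−1.23), Kctd12 (−1.23) and Bcl2l11 (−1.13). In plain folds Fabp4 was 9.72-fold lower (8.09 to 11.8), Hist1h1c 5.28-fold lower (2.56 to 12.3) on 9 reads, and Rhob 2.82-fold lower (2.45 to 3.27). Bmp2 was 3.45-fold lower (1.90 to 6.61), Kctd12 2.58-fold lower (2.24 to 2.99) and Bcl2l11 2.56-fold lower (1.94 to 3.41). With the untreated library of 1 to 12 h as control, 3 of the 6 kept that call, Fabp4, Hist1h1c and Rhob. Bmp2 (−0.71), Bcl2l11 (−0.62) and Kctd12 (−0.23) lost it, and Id3 (−1.65), Fos (−1.30) and Egr2 (−1.02) passed the limit with that control, as did 10.8% of eligible genes. Fos, Egr2 and Myc were 2.35-fold lower (1.46 to 3.88), 2.02-fold lower (1.64 to 2.49) and 2.25-fold lower (1.35 to 3.86) in plain folds, and between −0.88 and −0.99 on the log2 scale of RPKM + 1. Dusp14 was the only gene at least 2-fold higher (1.69), on 11 reads against 1. Sde2 (0.88), Pdgfb (0.77), Plscr1 (0.44) and Pnrc1 (0.38) had the next highest ratios, and the plain folds of Sde2, Pdgfb and Pnrc1 were 1.84 (1.30 to 2.63), 1.74 (1.12 to 2.72) and 1.23 (1.03 to 1.48).

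The order of the genes at 12 h was largely kept at 24 h. Across the 40 genes the 12 h and 24 h ratios had a Pearson r of 0.79 and a Spearman rho of 0.72, with 0.91 and 0.79 across all eligible genes. For the 6 h and 24 h ratios the values were lower, 0.44 and 0.16 across the 40 and 0.80 and 0.63 across eligible genes. The ratios share no library, but genes are not independent replicates. All 6 genes that were lower at both 6 h and 12 h were lower at 24 h, with a median of −1.11 and 3 of them at least 2-fold lower. The 23 genes near control had a median of −0.07, and none was 2-fold lower. Eligible genes were not sorted into these classes, and their 12 h and 24 h ratios also went together, so this is no trait of the 40. Across the 40 the size of the pulse at 1 h had no such relation to the 24 h ratio (r = 0.08, rho = 0.01). The 1 h and 24 h ratios of all eligible genes had r = 0.38 and rho = 0.20. In the 24 h pair the neutrophil markers stood at 129.6 against 52.4 RPKM and the fibroblast and mesothelial markers at 150.2 against 103.2. Of the 7 neutrophil markers measured, 3 had no read with KLA and 4 none without it, so that sum rests on few genes. The part of other cells at 24 h was not tested.

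**Figure D4:**
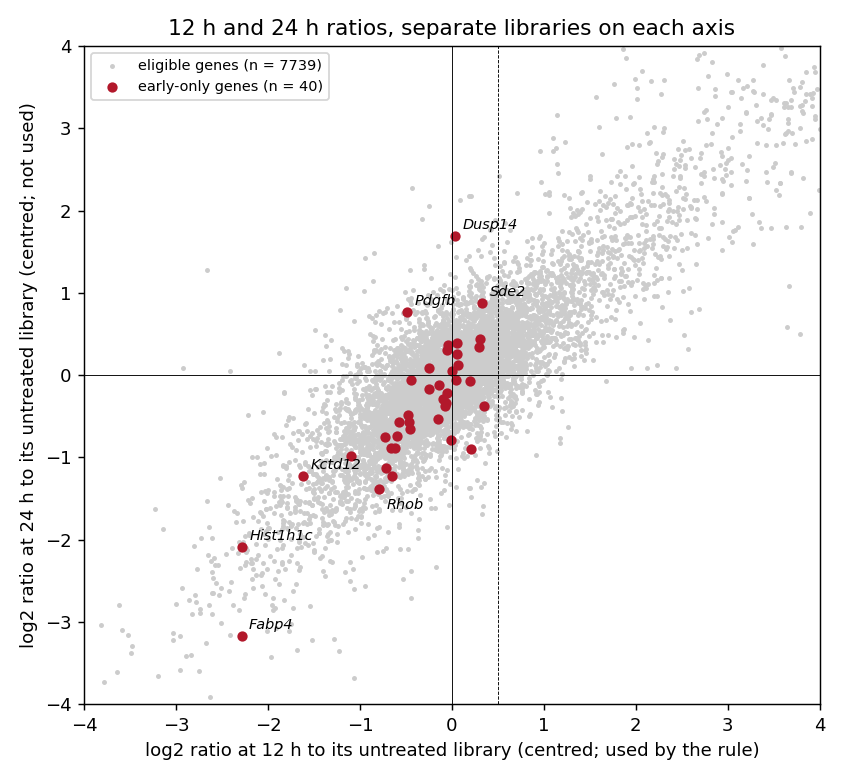
Each point is a gene, with its log2 ratio to untreated at 12 h on the horizontal and at 24 h on the vertical axis, both relative to the median of expressed genes, early-only genes in red over eligible genes in grey. Both axes run from −4 to 4, and 181 eligible genes lie outside them. The dashed line is the limit of 0.5 used at 12 h. Fabp4 and Hist1h1c lie lowest at the left, and Dusp14 is the only red point above 1.

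The untreated library that the rule used also enters every early ratio, so the values were set against the other untreated library. The KLA libraries are the same in both comparisons. At 1 h 33 of the 40 genes were still at least 2-fold higher (5.76% of eligible genes were), and 36 were higher than both untreated libraries beyond counting error. The count of 36 was not taken over eligible genes. The whole rule was met by 26 of the 40 with that control, and by 54 eligible genes in all (0.698%). Among the 14 that missed it were Nr4a1, Nfkbid and Hilpda, whose RPKM in the 24 h control were 0, 6.54 and 64.8, against 0.733, 12.6 and 96.3 in the first. Dusp14, Fam110a, Fem1b, Id3, Plscr1, Pnrc1, Sde2, Sirt1, Tatdn3, Nhej1 and Zfp703 missed it too. The 28 genes gained included Dusp5, Errfi1, Fosl2 and Mcl1. The untreated libraries lay within 0.5 of each other on the log2 scale for 30 of the 40 genes, and for 5815 of the 7739 eligible genes, a like share. They were at least 2-fold apart on that scale for none of the 40, against 0.659% of eligible genes 2-fold higher and 1.96% lower in the later one. In plain RPKM they were at least 2-fold apart for 5 genes, Kctd12, Id3, Dusp14, Nr4a1 and 1810011O10Rik (5.81% of eligible genes), of which the last 3 had 0 to 4 reads in these libraries. The largest differences between them were those of Kctd12 (0.99), Id3 (−0.92) and Nfkbid (−0.88).

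AU-rich elements, the decay signals of many early RNAs, were looked for in the 3′ UTRs of the GENCODE M21 transcripts (GRCm38). The windows of 30 bases show the element UAUUUAU in capitals, in DNA letters, for genes of different roles.
Fos 3′ UTR, chr12:85477102-85477131 (plus strand): gtgttttcaattTATTTATtaagatggatt
Klf2 3′ UTR, chr8:72320987-72321016 (plus strand): caaacagactgcTATTTATtggaccttagg
Btg2 3′ UTR, chr1:134077249-134077278 (minus strand): aaaatgaagagcTATTTATacatgtttttt
C5ar1 3′ UTR, chr7:16247202-16247231 (minus strand): tttaaaagcacgTATTTATTTATtttgtgg
Bmp2 3′ UTR, chr2:133561819-133561848 (plus strand): caatgaagacttTATTTATggaatggaatg
In C5ar1 2 copies overlap. The element was in 15 of 40 early-only genes (37.5%), 45.3% of sustained and 27.0% of eligible genes, or 0.440, 0.781 and 0.295 copies per kb of UTR. The 15 were the 5 above with 1810011O10Rik, Dot1l, Fem1b, Itpkc, Pdgfb, Plscr1, Sde2, Sgms1, Sirt1 and Zfp703. The shorter core AUUUA was in 70.0%, 76.2% and 66.4% of the same sets. Median UTR lengths were 1181, 910 and 934.5 bases, and longer UTRs held the element more often in eligible genes. Under 500 bases it was in 0 of 4 early-only genes, against 21.3% of sustained and 7.39% of eligible ones, and at 500 to 1000 bases in 3 of 14, against 47.5% and 20.0%. At 1000 to 2000 bases it was in 10 of 17, against 55.7% and 33.0%, and above 2000 bases in 2 of 5, against 62.5% and 53.0%. The position of the early-only genes between the other sets therefore did not hold in every length class. The GENCODE transcripts do not always equal the measured ones. The UTR of 1810011O10Rik has 1396 bases and its measured transcript 1330, and that of Hist1h1c has 880 against 724. The UTR matched to Myc has only 159 bases. The counts hold for the matched transcripts and not always for the RNA that was measured.

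Early-only genes were compact beside all eligible genes. Their loci had a median length of 9209.5 bases against 10878 in sustained and 19456 in eligible genes, and 52.5% were under 10 kb against 45.1% and 29.8%. They ran from 724 bases in the intronless Hist1h1c to 107880 in Nhej1. Median transcript lengths were 2513.5, 2256 and 2534 bases, so the difference from eligible genes lay in the locus and not in the RNA. With the longest transcript of each symbol the median locus of the 40 was 11665 bases. The other sets were not measured that way, so the order of early-only and sustained genes was not tested with it.

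The peak lists of LXR, the oxysterol-sensing nuclear receptor, and SREBP1, the sterol-regulated factor of lipid synthesis, belong to samples whose titles give GW3965 as the treatment. An LXR peak lay within 1 kb of the start of 31 of 40 early-only genes (77.5%), against 56.7% of 7739 eligible and 55.3% of sustained genes. With peaks of at least the median score of the list the shares were 55.0%, 29.0% and 33.6%. An SREBP1 peak lay within 1 kb of 19 of 40 (47.5%), against 43.8% of eligible and 28.9% of sustained genes. Within 20 kb the LXR shares were 97.5% of early-only and 86.7% of eligible genes, and the SREBP1 shares 82.5% and 70.9%.

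The LXR peak at Fos stood out (chr12:86814581-86814765, mm9), centred 178 bases before the start. Its score of 213, the authors' own value, ranked 118 among 40660 peaks, with 531.9 normalised tags and a 294-fold enrichment over the input. The peak at Frmd6 (chr12:71926050-71926234) ranked 272 with a score of 147, and an SREBP1 peak (chr12:71926155-71926349) overlapped it with a score of 19, rank 322 of 13984. That was the highest SREBP1 score within 1 kb of a start, shared with a peak 811 bases after the start of Hist1h1c. The next LXR score within 1 kb of a start was 36, at Dot1l, and the median of the list was 12. Fabp4 had an LXR peak 217 bases before its start with a score of 25, and an SREBP1 peak 827 bases after it with a score of 15. Among LXR peaks of lower rank were those at Hilpda (score 29), Trib1 (25), Rcan1 (20), Myc (17), Sgms1 (16), Nfkbid (14), Nr4a1 (14), Egr2 (8) and Btg2 (8). SREBP1 peaks with scores of 8 to 17 lay also at Nfkbid, Sde2, Id3, Klf2, Fam110a, Zfp703, Rhob, Cdc42ep4, Bmp2, Btg2, Bcl2l11, Gtf2b, Myc, Kctd12, Rcan1 and Sgms1. Each factor has 1 list, so no peak can be checked in a second one. The SREBP1 list was called from a combined set of tags, and the libraries in it are not named in the sources used. The sample listed as LXR after GW3965 in its title is a control in another of its labels and was used under its title. The sources also differ on how long GW3965 was given.

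**Figure D5:**
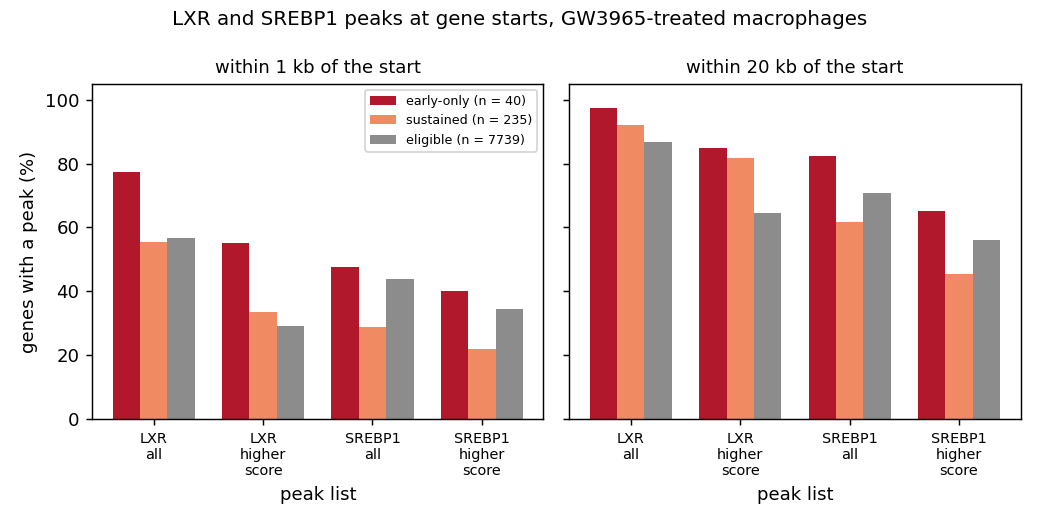
Bars give the share of genes, in percent, with an LXR or SREBP1 peak whose centre lies within 1 kb (left) or 20 kb (right) of the start, for all peaks and for peaks of at least the median score. Early-only genes stand at 77.5% for LXR within 1 kb, eligible genes at 56.7%.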

How the data were processed

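RNA of 6 libraries, 1 per condition, was analysed with 2 peak lists. The RPKM values were made by the authors and deposited as 1 table of 33022 transcripts. The submitters' processing notes name Bowtie 0.12.7, STAR, HOMER and build mm9 without a role for each. Strand in counting was not given in the sources used here. A gene and an overlapping or antisense neighbour can therefore share reads. Peaks were called with HOMER, per the file headers, at a false discovery rate of 0.001 and at least 4-fold over the input. The normalised tag count is a deposited signal per 10000000 tags. The fold over the input is a deposited ratio of the peak caller, and the deposited peak score was used to rank peaks within their list and to select the stronger ones. The LXR header names an input from KLA-treated cells and the SREBP1 header a combined tag directory. SREBP1 peaks were called from 24395376 tags and LXR peaks from 7501248.

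Each symbol was represented by its transcript of highest mean RPKM. Reads were recovered as value × length × library total, and 99.97% of values were whole within 0.01 read. Log2 ratios use RPKM + 1, which understates changes of low genes, and are relative to the median of the 10605 genes that reached 1 RPKM in 2 libraries. No count model was fitted because each condition had 1 library. Intervals are 95% Clopper-Pearson intervals on recovered reads and cover counting error only. Genes named are the members in a role list, the 15 highest at 1 h, the 5 highest and lowest at 24 h, the 5 lowest at 6 h, those beside a limit and those with a peak within 1 kb of the start. The others are named so that every member is accounted for. The members and lists were chosen with earlier results of these data known. Sequences came from RefSeq (GRCm38.p6) and GENCODE M21 and were matched by gene and transcript, with no conversion of coordinates. The match was not always exact. The promoter of C5ar1 was taken at a start 202 bases from that of its measured transcript, and some UTRs differ as given above. The ratio and interval code was tested on simulated data. Python 3.11.15, numpy 2.4.6, pandas 2.3.3, scipy 1.17.1 and matplotlib 3.10.9 were used. Alternatives were another pseudocount, no centring, another filter, transcript or control, a shorter promoter, and a wider window or stricter score for peaks.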

Additional observations from a re-analysis of the deposited data

Results flagged for a closer look

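For 6 early-only genes the difference between KLA and untreated cells had opposite directions at 1 h and 24 h, at least 2-fold higher at the first and at least 2-fold lower at the second. Each direction rests on 1 library a side, and the difference between the times was not tested. The direction at 1 h was set by the rule that chose the genes. At 24 h 6 of the 40 early-only genes were at least 2-fold lower, against 9.45% of eligible genes. The rule also capped the 12 h ratio, and 12 h and 24 h ratios went together across eligible genes (r = 0.91). The 24 h direction is therefore not independent of the choice. The log2 ratios at 24 h were −3.17 for Fabp4, −2.09 for Hist1h1c, −1.39 for Rhob, −1.23 for Bmp2, −1.23 for Kctd12 and −1.13 for Bcl2l11. At 1 h the same genes stood at 1.31, 1.11, 1.34, 1.66, 2.03 and 2.96. Against the other untreated library the 24 h ratios of Fabp4, Hist1h1c and Rhob were −3.40, −2.50 and −1.41, while those of Bmp2 (−0.71), Kctd12 (−0.23) and Bcl2l11 (−0.62) were no longer at least 2-fold lower.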

How the results depend on the processing

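The number of early-only genes was 97 with no filter on low values. It was 34 to 54 under the other 6 alternatives, of which the pseudocount of 3 and no centring each kept 33 of the 40 genes and the 24 h control kept 26. Without centring 23 listed early response genes were early-only instead of 14. At 24 h the count of genes at least 2-fold higher was 0 with a pseudocount of 3, with the other untreated library and among the 34 genes that reached 10 RPKM, and the median was −0.23 with the pseudocount of 3. The κB site was in 0% of early-only promoters in the 150 bases before the start. Within 20 kb an SREBP1 peak lay near 82.5% and an LXR peak near 97.5% of the genes, and an LXR peak of at least the median score within 1 kb of 55.0%. The cause of these changes was not tested, except that a wider window can only add peaks and a shorter one can only lose matches. Against the other untreated library the count of genes at least 2-fold lower at 24 h was again 6, but only 3 of them were shared: Bmp2, Kctd12 and Bcl2l11 were lost and Egr2, Fos and Id3 gained. No single-gene ratio of at least 2-fold changed sign under another pseudocount, no centring or the other control. Of the smaller 24 h ratios, 10 changed sign with the other control, such as Nfkbid (0.35 to −0.52), Hilpda (0.30 to −0.28) and Sirt1 (−0.57 to 0.02), and 1, Itpkc, changed sign without centring (0.05 to −0.04). The pseudocount and centring alternatives for the other untreated library and the lists were chosen after seeing the data. No paired analysis was possible because each condition had 1 library, and for the same reason no replicate could be left out. At 2205187 to 2674826 reads a library, genes with few reads, such as Dusp14, 1810011O10Rik, Nhej1 and Tatdn3, have wide intervals.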
